A study of Arabidopsis thaliana with 57 samples.

Results

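The 10 genes described here have products that start, carry or gate the systemic wave of reactive oxygen species and calcium in Arabidopsis thaliana, and they were followed through leaves of plants that touched one another. The genes were chosen by name, with earlier results of these data known. All 10 were found among the 32824 genes of both expression tables: HPCA1, RBOHD, RBOHF, CIPK26, OST1, GHR1, GLR3.3, GLR3.6, PDLP1 and PDLP5. All 10 passed the filter on low values in both tables (3 or more libraries reaching an FPKM of 1), although PDLP5 in the contact table and PDLP1 in both lay near it, at medians of 0.704 FPKM for PDLP5 and 1.29 and 1.66 FPKM for PDLP1 (contact and chain tables). GLR3.6 and GHR1 in the chain table were also near it. Levels are FPKM, fragments scaled to transcript length and library size, which are therefore per length and can be compared between genes.

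The study sequenced RNA of pooled rosette leaves, 57 libraries in all, to ask whether a signal raised in 1 plant is seen in leaves of the plants it touches. In the contact experiment, wild-type (Col-0) plants stood as individual plants or touched others for 1 h or 1 week. In the chain experiment, 3 touching plants formed a row that was either WT-hpca1-WT, with the mutant hpca1-1 in the middle, or 3WT, with wild-type (Col-0) plants throughout. The local leaf was given elevated light (2000 µmol photons per m2 and s for 30 min) or left in control light, and the local leaf and systemic leaves 1, 2 and 3 were taken. Systemic leaf 2 of WT-hpca1-WT was the hpca1-1 leaf, and every other leaf of both chains was wild type. Each of the 19 groups had 3 libraries, and each library pooled leaves of 10 to 15 plants. A solution of phosphate buffer, the wetting agent Silwet and agarose was put between leaves that had to touch, so touching plants and all chain plants received it and individual plants did not. Contact and this solution cannot be told apart in the comparisons with individual plants. The labels give no batch or hour of sampling, and they do not say what kind of lesion hpca1-1 carries. In comparisons of the chains, the mutant middle plant and any set of plants grown or sampled together cannot be told apart.

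In plants a stressed leaf makes superoxide outside its cells through respiratory burst oxidase homologs (RBOH), NADPH oxidases of the plasma membrane, and the hydrogen peroxide that follows is sensed by neighbouring cells, which make more. Calcium entering through channels such as the glutamate receptor-like (GLR) proteins activates the oxidases, and kinases add phosphate to them, so that oxygen species and calcium drive each other from cell to cell. Plasmodesmata, the channels through plant cell walls, and the proteins that line them set how freely cells communicate.

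The libraries read as leaf tissue. The 4 mesophyll markers summed to between 37311 and 48942 FPKM in every library, whereas of the 3 root markers EXPA7 was listed at 0 in all 57 and COBL9 did not exceed 0.0365 FPKM. The other root marker, PYK10, was present, and the root sum ran from 0.109 to 1.96 FPKM over the contact libraries and from 5.93 to 42.4 FPKM over the chain libraries. In the lit local leaf the root sum was 5.93 to 6.996 FPKM, against 16.5 to 19.1 FPKM in control light, in WT-hpca1-WT, and 10.5 to 12.5 FPKM, against 33.4 to 42.4 FPKM, in 3WT. The sum of the 3 epidermis markers was higher in elevated light without overlap in all 6 systemic comparisons and overlapped in both lit local leaves. Over the chain libraries KCS10 averaged 96.6 FPKM, ATML1 25.2 FPKM and PDF1 0.672 FPKM, so this sum mostly follows KCS10. Of the 8 light comparisons KCS10 was called higher in 6 and lower in 1. ATML1 was called higher in 2 and lower in 2, and PDF1 higher in 1 and lower in 2. Guard cell, epidermis and phloem sums are given beside some of the members they moved with, and their part in the results was not tested. Replicate 3 of the control leaves at systemic leaf 3 of WT-hpca1-WT stood apart from its partners, with an SD of the log2 difference over genes of 0.327 and 0.353 against 0.278 between the other pair, so results of the members that use this group are given with and without it. In the lit local leaf the median change of all tested genes was -0.16 (log2) in 3WT and -0.19 in WT-hpca1-WT, and it was -0.12 at systemic leaf 2 of 3WT. A rise in these leaves is therefore larger, and a fall smaller, when set against the other genes. Fewer cells of a type and less RNA per cell cannot be told apart in pooled leaves.

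A gene is said to have risen or fallen where limma's test of log2(FPKM + 1), adjusted by the Benjamini-Hochberg method over all tested genes, gave p under 0.05. After 1 h of contact 2 of the 10 genes were called, both higher, where 14.7% of all 17177 tested genes were called. After 1 week 3 were called, all higher (14.8% of all genes), and between 1 week and 1 h 1 was called (22.1%). In the lit local leaf 5 of 10 were called in WT-hpca1-WT (62.5% of 18735 genes) and 7 of 10 in 3WT (59.3%), so the members were called about as often as other genes. At systemic leaves 1, 2 and 3 the counts were 2, 5 and 6 in WT-hpca1-WT, where 29.5%, 17.9% and 27.5% of all genes were called. In 3WT they were 0, 4 and 2, where 14.8%, 41.2% and 23.0% were called. The count of 0 at systemic leaf 1 came with 3 members at an unadjusted limma p under 0.05. Over both lit leaves 12 of 20 pairs of member and comparison were called (60.9% of all pairs), and over the systemic leaves 19 of 60 (25.6%). RBOHD was called in 14 of the 19 comparisons and HPCA1 in 11, whereas GLR3.6 and OST1 were called in 1 each. No all-gene share of such counts was computed. Over the chain libraries RBOHD and HPCA1 averaged 40.7 and 50.0 FPKM, and GLR3.6 and OST1 1.82 and 4.16 FPKM. CIPK26, at 32.9 FPKM, was called in 3, and GHR1, at 1.90 FPKM, in 6. The log2(FPKM + 1) scale understates changes of low genes, so few calls do not show a lack of response.

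RBOHD, the main oxidase of the leaf's oxidative burst, rose more than any other member in both experiments. RBOHD (AT5G47910, chr5:19397041-19402061, plus strand, TAIR10.1) and RBOHF (AT1G64060, chr1:23769774-23776984, plus strand), which acts with it, in guard cells among others, were the only oxidases of the family that could be tested. None of the 8 other RBOH genes exceeded 0.523 FPKM in any library, and AT5G60010 and AT3G45810 were listed at 0 in all of them. The 300 bases before the annotated start of each gene are printed because both genes rose in the lit leaf, and RefSeq (TAIR10.1) places no other gene in either window. The W-box core TTGAC, the sequence that WRKY transcription factors bind, is in capitals, on either strand.
RBOHD, chr5:19396741-19397040, plus strand: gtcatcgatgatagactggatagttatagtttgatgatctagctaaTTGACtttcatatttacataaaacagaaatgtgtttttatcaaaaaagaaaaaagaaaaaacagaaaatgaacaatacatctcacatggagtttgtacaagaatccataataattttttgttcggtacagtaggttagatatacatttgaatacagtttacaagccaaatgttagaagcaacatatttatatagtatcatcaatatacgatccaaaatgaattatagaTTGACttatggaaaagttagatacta
RBOHF, chr1:23769474-23769773, plus strand: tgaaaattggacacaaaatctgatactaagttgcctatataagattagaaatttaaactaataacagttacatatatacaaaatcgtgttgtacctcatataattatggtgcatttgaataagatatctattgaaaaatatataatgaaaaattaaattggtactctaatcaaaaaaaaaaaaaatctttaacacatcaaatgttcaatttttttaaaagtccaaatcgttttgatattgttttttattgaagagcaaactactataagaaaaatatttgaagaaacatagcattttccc

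The RBOHD window held the W-box core at 2 places, starting 254 and 26 bases before the gene's start, and the RBOHF window held none. This core was found in 50.4% of the windows of the same length before 27443 protein-coding genes, so its presence is common. The G-box CACGTG (7.09% of windows), the CGCG box CGCGT (7.89%) and the heat shock element GAANNTTC (11.5%) were in neither window on either strand. A match describes the letters and shows no binding.

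RBOHD rose most at the shorter contact time. It was at 28.0, 30.1 and 29.8 FPKM in the 3 libraries of 1 h of contact, against 7.72, 7.38 and 7.45 FPKM in individual plants. After 1 week it was at 10.3, 10.13 and 9.92 FPKM. All libraries of 1 h lay above all others, and those of 1 week lay above those of individual plants. The log2 fold change was 1.83 ± 0.06 at 1 h (SE, limma adjusted p = 6.37e-09) and 0.38 ± 0.06 at 1 week (adjusted p = 0.00119), and 1 week against 1 h it was -1.45 ± 0.06 (adjusted p = 2.69e-08). Both contact times were set against the same individual plants. The 3 epidermis markers summed to 144 to 148 FPKM at 1 h, against 124 to 138 FPKM in individual plants. RBOHF, at a much lower level, was at 3.44, 3.298 and 3.13 FPKM after 1 h of contact, against 2.48, 1.957 and 2.53 FPKM in individual plants. Its libraries did not overlap, but the difference of 0.37 ± 0.14 was not called (SE, limma adjusted p = 0.119). The guard cell markers, 5 of 6 with a mean of at least 1 FPKM, summed to 35.8 to 38.9 FPKM at 1 h, against 29.0 to 34.1 FPKM in individual plants, and their part in these values was not tested.

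**Figure D1:**
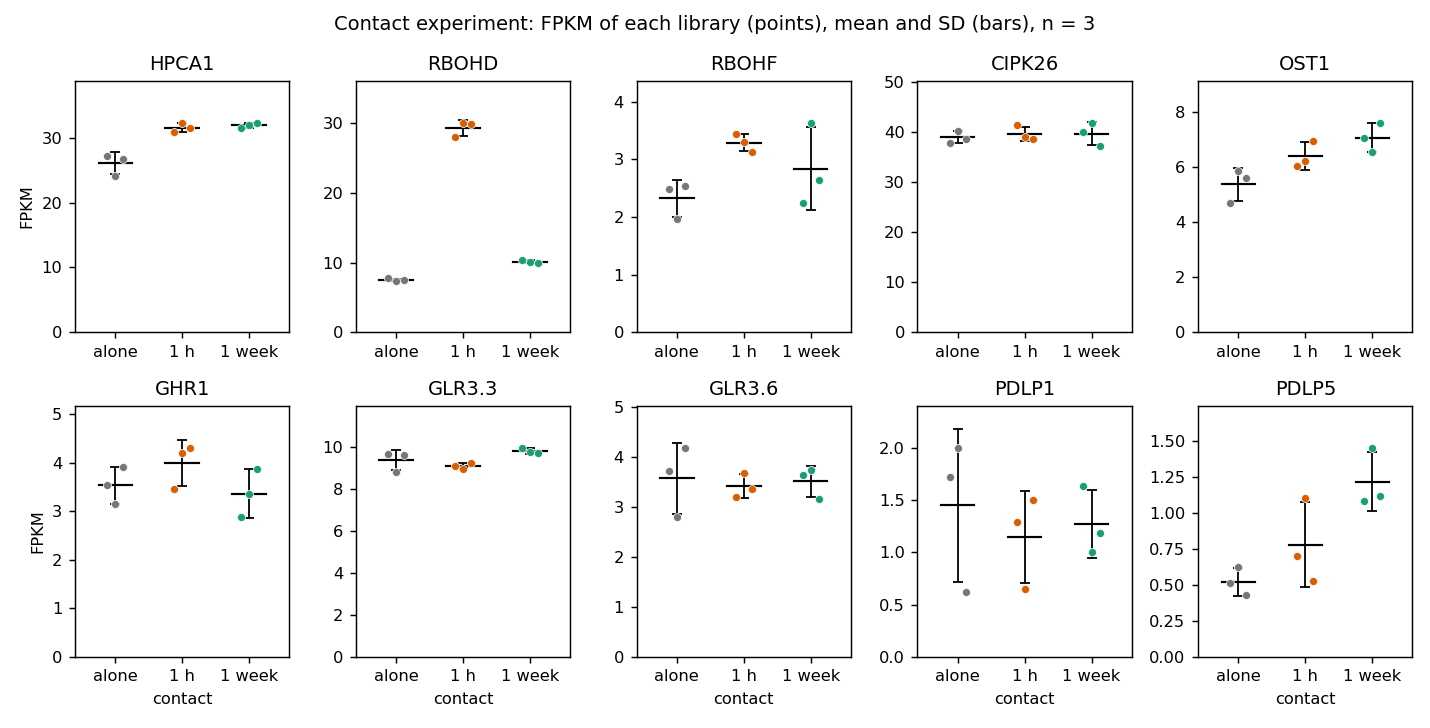
FPKM of the 10 genes in individual plants (alone) and after 1 h and 1 week of contact, with 1 point per library and the mean and SD as bars (n = 3). RBOHD averaged 7.52 FPKM in individual plants, 29.3 FPKM at 1 h and 10.12 FPKM at 1 week, and the other genes spanned a smaller ratio between groups.

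Light on the local leaf raised RBOHD in that leaf in both chains. In WT-hpca1-WT it was at 59.5, 58.8 and 57.5 FPKM in elevated light, against 34.1, 33.3 and 32.2 FPKM in control light. In 3WT it was at 80.3, 87.4 and 79.4 FPKM in elevated light, against 35.0, 36.4 and 35.5 FPKM in control light. The groups were far apart, and the chains were not called apart in control light. The log2 fold changes were 0.80 ± 0.05 (SE, limma adjusted p = 2.44e-16) and 1.19 ± 0.05 (adjusted p = 1.95e-21), which is 0.99 and 1.35 against the all-gene median. The response was smaller in WT-hpca1-WT, with a difference of -0.38 ± 0.07 (log2, SE, limma adjusted p = 0.000112), although the lit leaf is wild type in both. RBOHF moved the same way by less. It averaged 4.52 ± 0.398 FPKM in elevated light and 3.41 ± 0.222 FPKM in control light in WT-hpca1-WT (SD, n = 3; 0.32 ± 0.07, limma adjusted p = 0.000145). In 3WT it averaged 4.69 ± 0.435 FPKM in elevated light and 3.99 ± 0.284 FPKM in control light (0.19 ± 0.07, adjusted p = 0.0200). Fitted on its own groups alone, the 3WT comparison no longer called RBOHF (adjusted p = 0.0972), and the call was also lost without replicate 2 of the control leaves (0.14) or replicate 2 of the lit leaves (0.13).

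Away from the lit leaf neither oxidase was called higher in 3WT. RBOHD at systemic leaf 1 averaged 39.9 ± 0.519 FPKM in elevated light and 40.5 ± 1.305 FPKM in control light in WT-hpca1-WT. In 3WT it averaged 34.5 ± 0.467 FPKM in elevated light and 35.6 ± 0.716 FPKM in control light (SD, n = 3), and neither light response was called. In control light RBOHD was called higher in WT-hpca1-WT than in 3WT at this leaf. That call was lost without replicate 1 of the control leaves of 3WT (0.16, limma adjusted p = 0.0522) or of WT-hpca1-WT (0.16, adjusted p = 0.0600). In the hpca1-1 leaf, systemic leaf 2 of its chain, RBOHD fell to 31.5, 33.0 and 31.8 FPKM in elevated light, against 45.5, 42.9 and 43.7 FPKM in control light (-0.45 ± 0.05, limma adjusted p = 1.08e-08). In the wild-type leaf at the same place of 3WT it was at 38.2, 35.3 and 38.6 FPKM in elevated light, against 40.8, 42.5 and 43.1 FPKM in control light. That smaller fall, -0.17 ± 0.05 (limma adjusted p = 0.00682), was -0.05 against the all-gene median. It was lost without replicate 2 of the elevated-light leaves (-0.13) and under median-of-ratios scaling (-0.04) and quantile normalization (-0.10). The fall in the hpca1-1 leaf was the larger, with a difference of -0.28 ± 0.07 (limma adjusted p = 0.00460).

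At systemic leaf 3, a wild-type leaf in both chains, RBOHD moved in opposite directions. In WT-hpca1-WT it was at 35.7, 34.7 and 35.5 FPKM in elevated light, against 30.7, 30.7 and 24.0 FPKM in control light. In 3WT it was at 32.7, 31.5 and 31.5 FPKM in elevated light, against 41.4, 39.4 and 40.1 FPKM in control light. The groups did not overlap in either chain, with elevated light above control light in WT-hpca1-WT and below it in 3WT. The changes were 0.31 ± 0.05 (SE, limma adjusted p = 6.15e-06) and -0.33 ± 0.05 (adjusted p = 3.41e-06), and their difference was 0.64 ± 0.07 (adjusted p = 1.23e-08). Without replicate 3 of the control leaves of WT-hpca1-WT, the low one at 24.0 FPKM, the rise was 0.20 and the difference between chains 0.52, and both were still called. Fitted on its own groups alone, the comparison did not call this rise (adjusted p = 0.112). In control light RBOHD was lower here in WT-hpca1-WT by 0.50 (-0.50 ± 0.05, limma adjusted p = 7.76e-10, and -0.38 without that replicate). RBOHF at systemic leaf 3 was at 3.44, 3.51 and 3.702 FPKM in elevated light, against 2.69, 2.61 and 2.56 FPKM in control light, in WT-hpca1-WT (0.33 ± 0.07, limma adjusted p = 0.000297, and 0.32 without replicate 3). In 3WT RBOHF averaged 3.404 ± 0.282 FPKM in elevated light and 3.38 ± 0.204 FPKM in control light (SD, n = 3).

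The difference between chains for RBOHF at systemic leaf 3 was 0.32 ± 0.10 (SE, limma adjusted p = 0.0217). It was lost when fitted on its own groups alone (adjusted p = 0.0623) and without replicate 3 of the 3WT control leaves (0.29), replicate 1 of the 3WT elevated-light leaves (0.27) or replicate 3 of the WT-hpca1-WT elevated-light leaves (0.30). At systemic leaf 2 RBOHF fell in both chains. In the hpca1-1 leaf it averaged 2.98 ± 0.418 FPKM in elevated light and 3.79 ± 0.322 FPKM in control light (SD, n = 3; -0.27 ± 0.07, limma adjusted p = 0.00453), and 1 library of each group overlapped the other group. That call was lost when the comparison was fitted on its own groups alone (adjusted p = 0.142). In 3WT it averaged 3.22 ± 0.117 FPKM in elevated light and 3.84 ± 0.217 FPKM in control light (-0.20 ± 0.07, adjusted p = 0.0220). That change was -0.08 against the all-gene median, -0.09 under median-of-ratios scaling and -0.05 under quantile normalization, where it was not called. It was also lost when fitted on its own groups alone (adjusted p = 0.0505) and without replicate 2 (-0.17) or 3 (-0.19) of its control leaves or replicate 3 of its elevated-light leaves (-0.17).

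**Figure D2:**
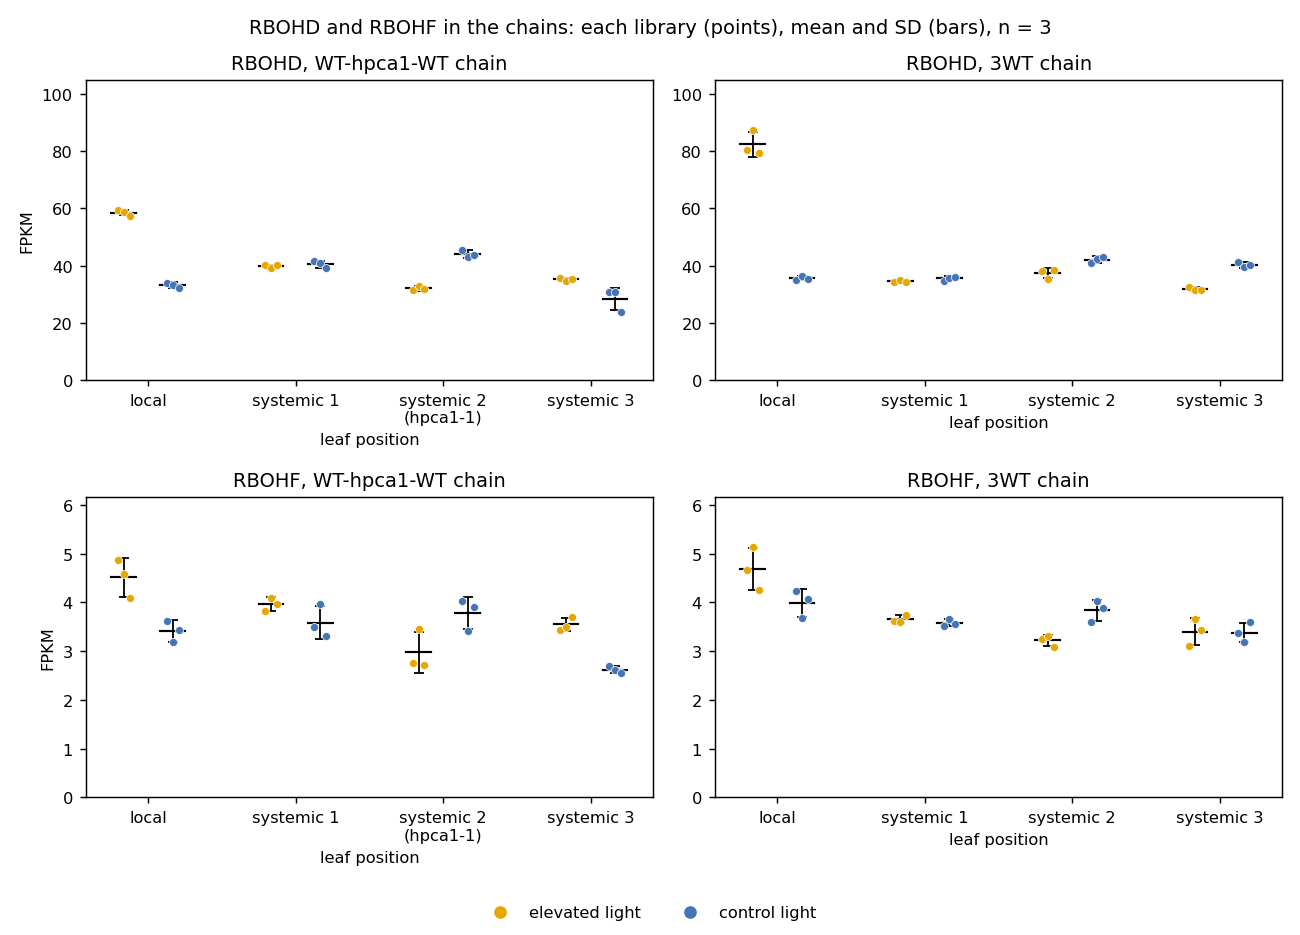
FPKM of RBOHD and RBOHF at each leaf position of WT-hpca1-WT and 3WT, in elevated light and in control light, with 1 point per library and the mean and SD as bars (n = 3). RBOHD is highest in the lit local leaves, at 58.6 and 82.4 FPKM, and lies above its control at systemic leaf 3 of WT-hpca1-WT but below it in 3WT.

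Over the 16 chain groups RBOHD averaged between 28.4 and 82.4 FPKM. The lit leaf of 3WT was highest and the lit leaf of WT-hpca1-WT second, and each was clear of the next group. Of the 15 neighbours in this order 10 overlapped, so most of the groups between 31.9 and 44.0 FPKM did not differ from the next beyond their spread. RBOHF averaged between 2.62 and 4.69 FPKM, with the same groups at the top and bottom, and 14 of 15 neighbours overlapped. Across the 16 group means the Pearson correlation of RBOHD with RBOHF was 0.827, a description that shares libraries and scaling and rests partly on the lit leaves. The genes whose group means were most like those of RBOHD were WRKY40, a transcription factor of defence responses (r = 0.961), and HEMA2, an enzyme of tetrapyrrole synthesis (r = 0.957), both chosen by this likeness among 12477 genes. WRKY40 averaged 103 FPKM in the lit leaf of 3WT, its highest group. Most like RBOHF were AT5G37540 (r = 0.903) and ATS9, a subunit of the proteasome (r = 0.843).

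HPCA1 (AT5G49760, chr5:20216332-20221382, plus strand), a receptor kinase that senses hydrogen peroxide outside the cell, was one of the more abundant members and the one altered in the mutant. In control light its level in the hpca1-1 leaf was 25.2, 24.2 and 24.5 FPKM, against 51.7, 54.8 and 53.5 FPKM in the wild-type leaf of 3WT. No hpca1-1 library came near a wild-type one of the chains, and transcript of the gene was still present in the mutant. The log2 fold change was -1.08 ± 0.04 (SE, limma adjusted p = 5.71e-22). HPCA1 in the wild-type plants of the contact experiment, which was normalized separately, lay between 24.2 and 32.3 FPKM. Its neighbours on the chromosome and in the family, AT5G49770 and AT5G49780, never exceeded 0.106 FPKM, and whether fragments of these copies were counted to HPCA1 was not tested.

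In the hpca1-1 leaf HPCA1 rose with light on the local leaf, and in the wild-type leaf at the same position it fell. It was at 31.5, 32.3 and 33.3 FPKM in elevated light, against 25.2, 24.2 and 24.5 FPKM in control light, higher by 0.38 ± 0.04 on the log2 scale (SE, limma adjusted p = 1.99e-09). In 3WT at the same position it was at 49.3, 48.7 and 48.2 FPKM in elevated light, against 51.7, 54.8 and 53.5 FPKM in control light (-0.13 ± 0.04, limma adjusted p = 0.0101). The 3WT value was lost under quantile normalization (-0.05) and without replicate 2 of its control leaves (-0.11), and under median-of-ratios scaling it turned to 0.0050. The responses of the chains differed by 0.51 ± 0.06 at this position (SE, limma adjusted p = 7.90e-09), and this difference was called under every alternative run.

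HPCA1 fell in the lit local leaf of both chains. In WT-hpca1-WT it averaged 45.3 ± 0.810 FPKM in elevated light and 58.4 ± 1.97 FPKM in control light (SD, n = 3; -0.36 ± 0.04, limma adjusted p = 8.63e-10). In 3WT it averaged 47.4 ± 1.34 FPKM in elevated light and 56.5 ± 2.202 FPKM in control light (-0.25 ± 0.04, adjusted p = 2.11e-06). Relative to the median of all genes these falls were -0.17 and -0.08, and median-of-ratios scaling ended the 3WT call (-0.06). HPCA1 at systemic leaf 1 of 3WT reached its highest level of all groups, 59.6, 61.4 and 59.6 FPKM in elevated light, against 56.7, 54.3 and 55.8 FPKM in control light. Those libraries did not overlap, but the difference of 0.11 ± 0.04 just missed the threshold (SE, limma adjusted p = 0.0527). The epidermis markers summed to 135 to 140.03 FPKM in elevated light and 121 to 124 FPKM in control light in that leaf. In WT-hpca1-WT the same leaf averaged 50.7 ± 0.858 FPKM in elevated light and 52.5 ± 1.15 FPKM in control light. The difference between chains at systemic leaf 1 was -0.16 ± 0.06 (limma adjusted p = 0.0320). It was lost under median-of-ratios scaling (-0.10) and without replicate 2 of any of the 4 groups in it (-0.15 in each case).

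HPCA1 at systemic leaf 3 of WT-hpca1-WT was at 55.6, 55.5 and 54.3 FPKM in elevated light, against 52.9, 51.0 and 43.4 FPKM in control light. The rise of 0.17 ± 0.04 (SE, limma adjusted p = 0.00111) was 0.09 without replicate 3 of the control leaves and was then still called (adjusted p = 0.0455), but it was lost when fitted on its own groups alone (adjusted p = 0.231). The epidermis markers there summed to 133 to 137 FPKM in elevated light and 126 to 132 FPKM in control light. The lower level of this chain in control light at systemic leaf 3 (-0.13 ± 0.04, adjusted p = 0.0191) was lost without that replicate (-0.05), without replicate 2 or 3 of the 3WT control leaves (-0.13 in each case) and when fitted on its own groups alone (adjusted p = 0.411). In the contact experiment HPCA1 was at 27.3, 24.2 and 26.8 FPKM in individual plants, 30.9, 32.3 and 31.6 FPKM after 1 h and 31.5, 32.0 and 32.3 FPKM after 1 week. Both contact groups lay above the individual plants and overlapped each other. It rose by 0.27 ± 0.05 at 1 h (log2, SE, limma adjusted p = 0.00557) and by 0.28 ± 0.05 at 1 week (adjusted p = 0.00443), and the contact times were not called apart.

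**Figure D3:**
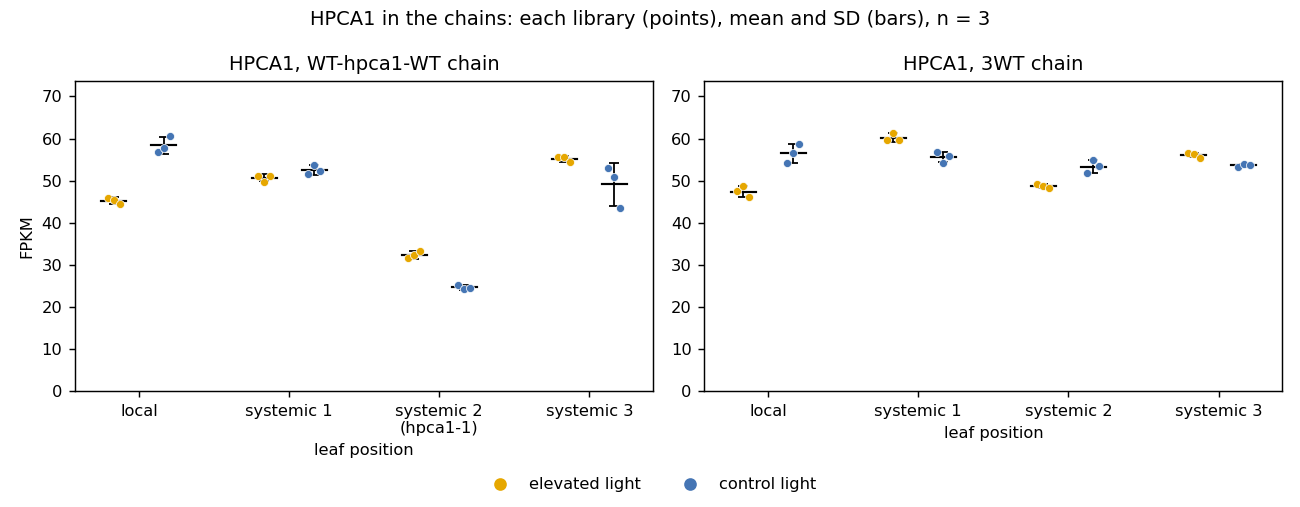
HPCA1 FPKM at each leaf position of WT-hpca1-WT and 3WT in elevated light and in control light, with 1 point per library and the mean and SD as bars (n = 3). The hpca1-1 leaf lies at 32.4 FPKM in elevated light and 24.6 FPKM in control light, below every wild-type group, the lowest of which averaged 45.3 FPKM.

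The genes whose chain group means were most like those of HPCA1 were MRD1 (AT1G53480, r = 0.953) and AT3G01345 (r = 0.904). Both had their lowest group means in hpca1-1 leaves. MRD1 averaged 0.943 FPKM there in control light and 18.8 FPKM in its highest group, and AT3G01345 averaged 1.184 FPKM there in elevated light and 64.8 FPKM in its highest group. HPCA1 itself averaged 24.6 and 32.4 FPKM in the hpca1-1 groups and 45.3 to 60.2 FPKM in the others. These correlations therefore rest largely on the hpca1-1 leaves, and they describe means that share libraries and scaling. Of the 7 receptor kinases listed as relatives of HPCA1 3 could be tested, and none was called after contact (limma, 0 of 3 also at an unadjusted p under 0.05). At 1 h and 1 week 14.7% and 14.8% of all genes were called. AT5G01950 and AT1G06840 were called lower at systemic leaves 2 and 3 of 3WT and systemic leaf 1 of the other chain. AT5G01950 was also called lower at systemic leaf 3 of WT-hpca1-WT (-0.26, and -0.33 without replicate 3 of its control leaves). In each lit local leaf 1 of the 3 was called lower. In the hpca1-1 leaf none of the 3 was called, nor at an unadjusted p under 0.05, where 17.9% of all genes were called. With 3 genes, a count of 0 cannot be told from these shares.

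GHR1 (AT4G20940, chr4:11202728-11206280, plus strand), a receptor-like pseudokinase that carries the hydrogen peroxide signal in guard cells, also rose in the hpca1-1 leaf, at a far lower level. There it was at 2.14, 2.23 and 2.61 FPKM in elevated light, against 1.53, 1.58 and 1.33 FPKM in control light. In 3WT the same position had 1.51, 1.34 and 1.54 FPKM in elevated light, against 1.58, 2.06 and 1.75 FPKM in control light. The hpca1-1 leaf thus had all its lit-plant libraries above its controls, and the wild-type leaf had them below. The change in the wild-type leaf, -0.18 ± 0.09 (log2, SE), was not called, and the median of all genes there was -0.12. The rise was 0.42 ± 0.09 (SE, limma adjusted p = 0.000375) and the difference between chains 0.60 ± 0.12 (adjusted p = 0.000314), and both were called under every alternative that tested them. The guard cell markers summed to 25.7 to 28.4 FPKM in elevated light and 25.7 to 27.3 FPKM in control light in the hpca1-1 leaf. The epidermis markers summed to 135 to 137 FPKM in elevated light and 119 to 121 FPKM in control light there, without overlap, and their part in the HPCA1 and GHR1 values was not tested.

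Elsewhere the GHR1 values were unsteady. At systemic leaf 3 of WT-hpca1-WT it averaged 2.38 ± 0.314 FPKM in elevated light and 1.87 ± 0.254 FPKM in control light (SD, n = 3; 0.24 ± 0.09, limma adjusted p = 0.0380). That call was lost when fitted on its own groups alone (adjusted p = 0.222), without replicate 1 (0.24) or 3 (0.17) of the control leaves or replicate 2 of the elevated-light leaves (0.16). The difference between chains there, 0.39 ± 0.12 (adjusted p = 0.0270), was lost under quantile normalization (0.34), when fitted on its own groups alone (adjusted p = 0.0982), and without replicate 3 of the WT-hpca1-WT control leaves (0.33), replicate 2 of its elevated-light leaves (0.31), or replicate 2 of the 3WT control (0.35) or elevated-light leaves (0.37). At systemic leaf 1 the difference was -0.37 ± 0.12 (adjusted p = 0.0257), and it was lost under both other scalings (-0.32 and -0.29), when fitted on its own groups alone (adjusted p = 0.0714) and without any of 6 of the 12 libraries. Without single libraries the values ran from -0.35 to -0.29. They came from leaving out replicate 2 of the 3WT control leaves, replicate 1 or 2 of the 3WT elevated-light leaves, replicate 2 or 3 of the WT-hpca1-WT control leaves, or replicate 1 of its elevated-light leaves.

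GHR1 in the lit local leaf of 3WT averaged 1.44 ± 0.213 FPKM in elevated light and 1.81 ± 0.0892 FPKM in control light (SD, n = 3; -0.21 ± 0.09, limma adjusted p = 0.0404). The value was -0.04 against the all-gene median, and it was lost under both other scalings (-0.09 and -0.07) and when fitted on its own groups alone (adjusted p = 0.0718). It was also lost without replicate 2 (-0.19) or 3 (-0.20) of the control leaves or replicate 1 (-0.16) or 2 (-0.18) of the lit leaves. The guard cell markers summed to 21.1 to 22.9 FPKM in the lit leaf and 26.8 to 28.3 FPKM in its control, and their part in the result was not tested. In the contact experiment GHR1 averaged 3.54 FPKM in individual plants, 4.00 FPKM after 1 h and 3.37 FPKM after 1 week, with all groups overlapping.

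The kinases that act on the oxidases were called in few comparisons. CIPK26 (AT5G21326, chr5:7217244-7222021, plus strand), a kinase that works with calcineurin B-like (CBL) calcium sensors and phosphorylates RBOHF, was among the most abundant members, between 29.3 and 35.9 FPKM over the chain groups. In the contact experiment it averaged 38.9 ± 1.21 FPKM in individual plants, 39.6 ± 1.47 FPKM after 1 h and 39.7 ± 2.34 FPKM after 1 week (SD, n = 3). It rose in 1 light comparison. CIPK26 in the lit local leaf of 3WT was at 34.4, 36.8 and 34.3 FPKM in elevated light, against 29.4, 29.3 and 29.1 FPKM in control light (0.26 ± 0.04, limma adjusted p = 4.62e-06). In WT-hpca1-WT it was at 32.2, 32.9 and 32.7 FPKM in elevated light, against 34.2, 31.6 and 30.3 FPKM in control light, where the groups overlapped. The difference between chains was -0.23 ± 0.06 (limma adjusted p = 0.00699), lost under quantile normalization (-0.17). The difference of CIPK26 at systemic leaf 1 of 3WT, 0.12 ± 0.04, missed the threshold (limma adjusted p = 0.0512). In control light WT-hpca1-WT was higher there by 0.13 ± 0.04 (adjusted p = 0.0306), which was lost without replicate 1 or 2 of the control leaves of either chain (0.12 to 0.14).

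OST1 (AT4G33950, chr4:16271745-16274825, plus strand), the abscisic acid-activated kinase SnRK2.6 that phosphorylates RBOHF in guard cells, was not called in any of the 16 chain comparisons. Its group means there lay between 3.75 and 4.61 FPKM, and all 15 neighbours in their order overlapped. After 1 week of contact OST1 was at 7.04, 6.55 and 7.60 FPKM, against 4.70, 5.83 and 5.58 FPKM in individual plants (0.34 ± 0.10, limma adjusted p = 0.0403). This call was lost under both other scalings (0.32 and 0.26), with no filter (adjusted p = 0.0607), when fitted on its own groups alone (adjusted p = 0.0802), and without replicate 1 (0.26) or 3 (0.37) of the individual plants or replicate 1 (0.34) or 3 (0.29) of the plants in contact. Guard cell markers summed to 34.0 to 37.1 FPKM after 1 week, against 29.0 to 34.1 FPKM in individual plants, and their part in this value was not tested.

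**Figure D4:**
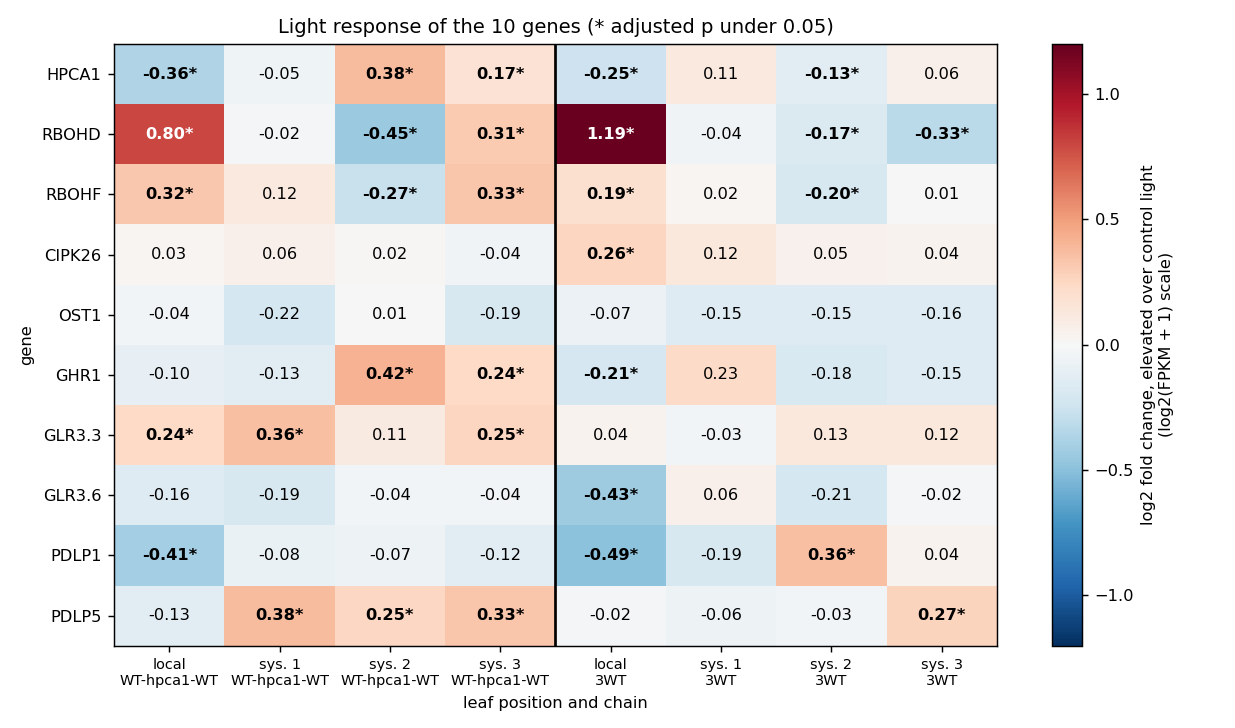
Log2 fold change of elevated over control light, on the log2(FPKM + 1) scale, for the 10 genes (rows) at the 4 leaf positions of WT-hpca1-WT and 3WT (columns), with asterisks where the limma adjusted p was under 0.05. RBOHD is strongly positive in both lit leaves (0.80 and 1.19), and all 6 called members at systemic leaf 3 of WT-hpca1-WT are positive.

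GLR3.3 (AT1G42540, chr1:15973054-15976813, plus strand), a glutamate receptor-like channel needed for the calcium and electrical signals that spread from wounds, rose in wild-type leaves of WT-hpca1-WT. Its annotated span overlaps that of AT1G42550 on the same strand, and whether fragments of that gene were counted to GLR3.3 was not tested. At systemic leaf 1, the leaf before the mutant plant, it was at 13.5, 12.3 and 13.003 FPKM in elevated light, against 9.81, 10.0 and 9.75 FPKM in control light. In 3WT the same leaf had 10.6, 10.5 and 10.5 FPKM in elevated light, against 11.4, 9.92 and 10.9 FPKM in control light. The groups were separate in WT-hpca1-WT and overlapped in 3WT. The rise was 0.36 ± 0.06 (SE, limma adjusted p = 1.14e-05), and the responses of the chains differed by 0.39 ± 0.09 (adjusted p = 0.000746), which was called under every alternative run. The epidermis markers summed to 126 to 129 FPKM in elevated light and 122 to 123 FPKM in control light in this leaf of WT-hpca1-WT. GLR3.3 in the lit local leaf averaged 10.8 ± 0.243 FPKM in elevated light and 9.04 ± 0.766 FPKM in control light in WT-hpca1-WT (SD, n = 3; 0.24 ± 0.06, limma adjusted p = 0.00110). In 3WT it averaged 10.4 ± 0.937 FPKM in elevated light and 10.0 ± 0.375 FPKM in control light, and these were not called apart. The difference between chains in the local leaf was not called either (limma adjusted p = 0.139).

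GLR3.3 at systemic leaf 3 of WT-hpca1-WT was at 11.1, 11.2 and 10.7 FPKM in elevated light, against 9.72, 9.86 and 7.75 FPKM in control light. The rise of 0.25 ± 0.06 (SE, limma adjusted p = 0.00143) was 0.15 without replicate 3 of the control leaves and then missed the threshold (adjusted p = 0.0507), as it did when fitted on its own groups alone (adjusted p = 0.161). In control light GLR3.3 was lower in this chain than in 3WT at systemic leaf 3 (-0.27 ± 0.06, adjusted p = 0.00119, and -0.17 without that replicate, lost when fitted on its own groups alone with an adjusted p = 0.181) and in the hpca1-1 leaf (-0.17 ± 0.06, adjusted p = 0.0486). The call in the hpca1-1 leaf was lost with a pseudocount of 0.1 (-0.18), with no filter (-0.17), under median-of-ratios scaling (-0.14) and when fitted on its own groups alone (adjusted p = 0.0667). It was also lost without replicate 1, 2 or 3 of the 3WT control leaves (-0.18, -0.19 and -0.14) or replicate 2 or 3 of the hpca1-1 leaves (-0.16 and -0.15). At systemic leaves 2 and 3 of 3WT all elevated-light libraries of GLR3.3 also lay above control, by 0.13 ± 0.06 and 0.12 ± 0.06 (log2, SE). Neither was called, and the responses of the chains were not called apart at systemic leaf 2 or 3 (limma adjusted p = 0.913 and 0.365). In the contact experiment GLR3.3 averaged 9.36 ± 0.479 FPKM in individual plants, 9.10 ± 0.128 FPKM after 1 h and 9.81 ± 0.140 FPKM after 1 week (SD, n = 3), with no call.

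GLR3.6 (AT3G51480, chr3:19100676-19104844, plus strand), which acts with GLR3.3 in wound signals, stayed low and was called once. In the lit local leaf of 3WT it was at 1.176, 1.36 and 1.46 FPKM in elevated light, against 1.82, 2.32 and 2.27 FPKM in control light (-0.43 ± 0.10, limma adjusted p = 0.000283, and -0.26 against the all-gene median). In WT-hpca1-WT it was at 1.46, 1.53 and 1.41 FPKM in elevated light, against 1.71, 1.55 and 1.99 FPKM in control light, where it was not called. The difference between chains was not called either. The 4 phloem markers summed to 167 to 176 FPKM in the lit leaf of 3WT and 210 to 261 FPKM in its control, and to 181 to 201 FPKM and 196 to 203 FPKM in the other chain, and their part in these values was not tested. Over the contact groups GLR3.6 averaged 3.41 to 3.57 FPKM, with overlapping libraries.

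PDLP5 (AT1G70690, chr1:26651840-26653643, plus strand), a plasmodesmata-located protein that closes these channels by promoting callose and is tied to salicylic acid, rose in all 3 systemic leaves of WT-hpca1-WT. At systemic leaf 1 it was at 12.3, 12.5 and 11.8 FPKM in elevated light, against 9.40, 8.41 and 9.75 FPKM in control light. In 3WT that leaf had 9.61, 11.2 and 9.60 FPKM in elevated light, against 11.3, 10.2 and 10.2 FPKM in control light. The groups were separate in the first chain and overlapped in the second. The rise was 0.38 ± 0.07 (SE, limma adjusted p = 1.00e-04), and the responses of the chains differed by 0.44 ± 0.10 (adjusted p = 0.00165), called under every alternative run. In the hpca1-1 leaf PDLP5 averaged 11.1 ± 0.801 FPKM in elevated light and 9.19 ± 0.269 FPKM in control light (SD, n = 3; 0.25 ± 0.07, limma adjusted p = 0.0153). That call was lost without replicate 1 of the control leaves (0.24) or replicate 2 of the elevated-light leaves (0.20), and its difference from the 3WT response, 0.28 ± 0.10, was not called (adjusted p = 0.0597).

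PDLP5 rose at systemic leaf 3 of both chains. It averaged 10.2 ± 0.391 FPKM in elevated light and 7.89 ± 0.548 FPKM in control light in WT-hpca1-WT (SD, n = 3; 0.33 ± 0.07, limma adjusted p = 0.000582, and 0.31 without replicate 3 of the control leaves). In 3WT it averaged 12.9 ± 1.32 FPKM in elevated light and 10.6 ± 0.877 FPKM in control light (0.27 ± 0.07, adjusted p = 0.00655), a call lost without replicate 3 of the elevated-light leaves (0.20) and when fitted on its own groups alone (adjusted p = 0.0865). In control light PDLP5 was lower in WT-hpca1-WT at systemic leaf 3 (-0.38 ± 0.07, adjusted p = 0.000196, and -0.35 without replicate 3) and in the hpca1-1 leaf (-0.26 ± 0.07, adjusted p = 0.00796). Across the 16 chain group means the Pearson correlation of PDLP5 with GLR3.3 was 0.753, a description of means that share libraries and scaling.

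In the contact experiment PDLP5 was low. It was at 0.516, 0.624 and 0.429 FPKM in individual plants, 0.704, 1.11 and 0.530 FPKM after 1 h and 1.08, 1.46 and 1.12 FPKM after 1 week. The libraries of 1 week lay above those of individual plants, but the difference of 0.54 ± 0.16 was not called (SE, limma adjusted p = 0.0505). Only the libraries of 1 week and the 1 h library at 1.11 FPKM reached the filter's FPKM of 1. The filter thus kept PDLP5 through the contact groups, where it was high, so this separation is no support for a rise. In the chain table, which was normalized separately, PDLP5 lay between 7.58 and 14.3 FPKM in every library. The separate normalization and differences between the experiments cannot be told apart in this gap.

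PDLP1 (AT5G43980, chr5:17694680-17696690, minus strand), a plasmodesmata-located protein that, like PDLP5, takes part in callose deposition, fell in the lit local leaf. In WT-hpca1-WT it was at 1.19, 1.13 and 1.04 FPKM in elevated light, against 1.81, 2.27 and 1.396 FPKM in control light. In 3WT it was at 0.827, 0.703 and 0.694 FPKM in elevated light, against 1.31, 1.31 and 1.72 FPKM in control light. No library overlapped in either chain. The changes were -0.41 ± 0.12 (SE, limma adjusted p = 0.00409) and -0.49 ± 0.12 (adjusted p = 0.000775), or -0.22 and -0.33 against the all-gene median. The first was lost under both other scalings (-0.28 in each) and without replicate 2 of the control leaves (-0.29). At systemic leaf 2 of 3WT PDLP1 averaged 2.11 ± 0.258 FPKM in elevated light and 1.43 ± 0.292 FPKM in control light (SD, n = 3; 0.36 ± 0.12, limma adjusted p = 0.0167), a call lost without replicate 1 of the control leaves (0.27), without replicate 3 of the elevated-light leaves (0.31) and when fitted on its own groups alone (adjusted p = 0.0554). Over the 16 group means its correlation with RBOHD was -0.799 and with RBOHF -0.827, again as a description.

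The light response of a member was compared between chains in 40 pairs of gene and position, of which 12 were called, 7 higher and 5 lower in WT-hpca1-WT, where 17.9% of all such pairs over all genes were called. By position the counts were 2 in the local leaf (15.3% of all genes), 4 at systemic leaf 1 (23.2%), 3 at systemic leaf 2 (18.8%) and 3 at systemic leaf 3 (14.1%). At systemic leaf 3 the 3 called members, RBOHF, GHR1 and RBOHD, all had the higher response in WT-hpca1-WT. The responses share control groups with the comparison of chains in control light, where 10 of 40 pairs were called, 2 higher and 8 lower (16.4% of all pairs). Those counts were 0, 2, 3 and 5 from the local leaf to systemic leaf 3, against 12.8%, 15.1%, 20.3% and 17.3% of all genes. At systemic leaf 3 of WT-hpca1-WT 6 members were called higher in elevated light (13.4% of all genes were called in that direction), and of these GLR3.3, RBOHF, PDLP5, RBOHD and HPCA1 were also called lower than 3WT in control light. Both statements use the same control leaves, including replicate 3. Without that replicate 4 of the 6 members were still called in elevated light and 4 of the 5 in control light. Fitted on the compared groups alone, 2 of the 6 (RBOHF and PDLP5) and 2 of the 5 (PDLP5 and RBOHD) were called. In the local leaf none of the 10 members differed between chains in control light (limma, 3 at an unadjusted p under 0.05).

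**Figure D5:**
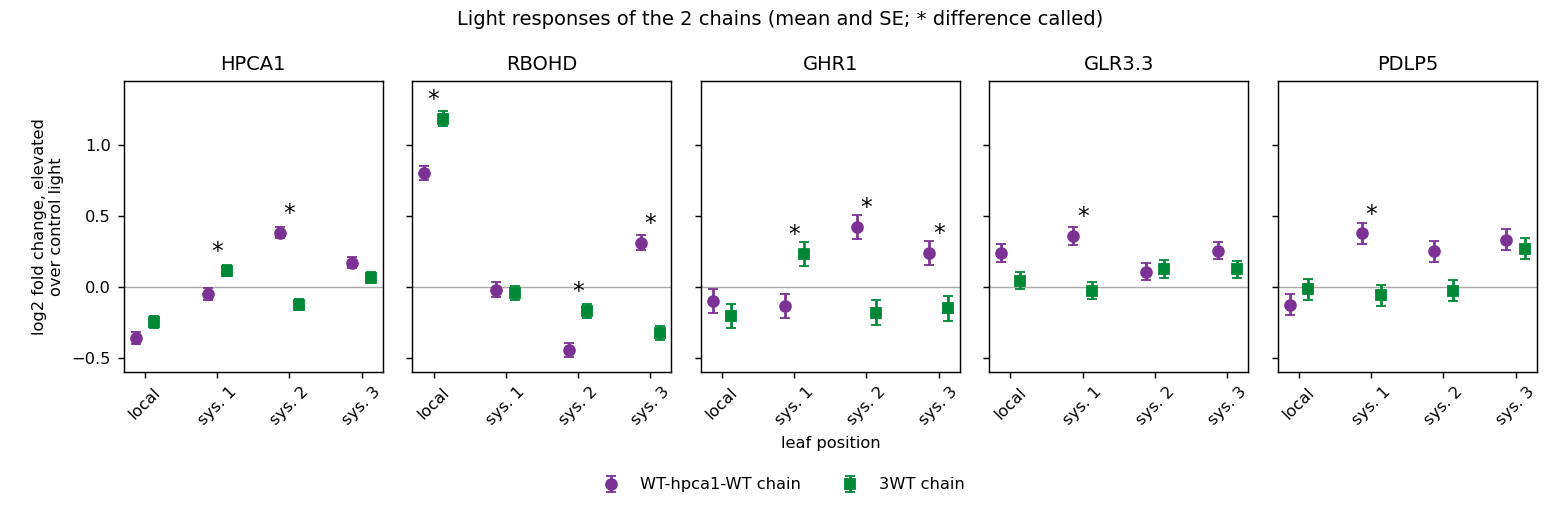
Log2 fold change of elevated over control light, on the log2(FPKM + 1) scale with its SE, at 4 leaf positions of WT-hpca1-WT (circles) and 3WT (squares), for HPCA1, RBOHD, GHR1, GLR3.3 and PDLP5; asterisks mark positions where the difference between chains was called. HPCA1 and GHR1 separate at systemic leaf 2, where the WT-hpca1-WT leaf is hpca1-1, RBOHD separates most at systemic leaf 3, and GLR3.3 and PDLP5 at systemic leaf 1.

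Of each list of other pathway genes, those named are among the largest called changes of a comparison or were called in most light comparisons. Among the CBL calcium sensors, CBL1, which binds CIPK26, rose in both lit leaves and fell in all 6 systemic comparisons. In the lit leaf it averaged 40.3 ± 0.285 FPKM in elevated light and 13.2 ± 0.558 FPKM in control light in WT-hpca1-WT, and 44.2 ± 2.19 FPKM in elevated light and 13.7 ± 1.12 FPKM in control light in 3WT (SD, n = 3). The changes were 1.54 ± 0.09 and 1.62 ± 0.09 (SE, limma adjusted p = 7.38e-17 and 1.93e-17). Its means at systemic leaf 1 were 8.83 ± 0.969 FPKM in elevated light and 22.4 ± 1.78 FPKM in control light in WT-hpca1-WT, and 8.82 ± 0.851 FPKM in elevated light and 15.6 ± 0.386 FPKM in control light in 3WT. Its other systemic changes lay between -0.90 and -0.57 (log2). After 1 h of contact CBL1 rose by 0.94 ± 0.12 (limma adjusted p = 0.000256), 1 of 5 CBL genes tested to be called.

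ACA8, a calcium pump of the plasma membrane, and SNRK2.2, a close relative of OST1, were called lower in all 8 light comparisons. Single light comparisons called between 14.8% and 62.5% of all genes. The share of all genes called this often in 1 direction was not computed. Counts over the 8 comparisons, for these and other genes, therefore do not show that such a run of calls is unusual. At systemic leaf 3 of WT-hpca1-WT ACA8 averaged 2.45 ± 0.302 FPKM in elevated light and 12.8 ± 1.41 FPKM in control light (SD, n = 3; -2.00 ± 0.07, limma adjusted p = 2.39e-23, and -2.08 without replicate 3 of the control leaves), the largest of its 8 falls. SNRK2.2 fell most in the lit leaf of that chain, to 18.4 ± 0.859 FPKM in elevated light, against 51.1 ± 1.31 FPKM in control light (-1.42 ± 0.05, adjusted p = 1.39e-23). CIPK1, another kinase of the CIPK family, was called higher in all 8, and CIPK14 in 7. MSL3, a mechanosensitive channel of plastids, was called higher in 7 and lower in 1, and OSCA1, an osmosensing calcium channel, was called lower in 7. The calls of these genes, CBL1 (-0.53) and PDLP3 at systemic leaf 3 of WT-hpca1-WT were still made without replicate 3 of its control leaves. In the list of calcium transport genes and oxidase regulators, 22 genes that were all tested, 3 were called higher and 15 lower in the lit leaf of WT-hpca1-WT (62.5% of all genes were called), and 7 higher and 11 lower in that of 3WT (59.3%). Median-of-ratios scaling changed these to 7 and 7 and to 11 and 8.

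After 1 h of contact 9 of those 22 genes were called higher and 2 lower, where 14.7% of all genes were called. CPK6, a calcium-dependent kinase, averaged 15.1 FPKM after 1 h and 6.67 FPKM in individual plants (1.07 ± 0.07, limma adjusted p = 1.64e-06). CNGC19, a calcium channel of the cyclic nucleotide-gated family, averaged 1.44 FPKM after 1 h and 0.156 FPKM in individual plants (1.08 ± 0.15, adjusted p = 0.000547). It averaged 0.571 FPKM over all contact libraries and passed the filter on low values only through those of 1 h. The filter thus kept CNGC19 through the group where it was high, and its call, among the 9, is no separate support. ACA10, a calcium pump, rose by 0.86 ± 0.06 (adjusted p = 1.74e-06). After 1 week 6 of the 22 were higher and 1 lower (14.8% of all genes called), and quantile normalization changed this to 4 and 0. The largest of these changes was that of BIK1, the kinase that activates RBOHD in immunity (0.78 ± 0.10, adjusted p = 0.000403). Of the 8 other GLR genes tested after contact none was called at either time (limma, 2 at 1 h and 0 at 1 week at an unadjusted p under 0.05). Of the 5 other PDLP genes none was called at 1 h or 1 week (0 and 1 at an unadjusted p under 0.05).

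Plasmodesmal callose genes, which make, bind or remove the callose around these channels, were called in both directions. At systemic leaf 2 of 3WT 7 of 11 were lower and 1 higher, where 41.2% of all genes were called, and median-of-ratios scaling changed this to 1 and 2. At systemic leaf 1 of WT-hpca1-WT, where PDLP5 rose, 6 of 11 were lower and none higher (29.5% of all genes called), and median-of-ratios scaling gave 5 and 2. In control light 6 of the 11 were higher and none lower in WT-hpca1-WT than in 3WT at that leaf (15.1% of all genes called), and both counts use the same control leaves. CALS1, a callose synthase, fell most in the lit leaf of WT-hpca1-WT, to 8.16 FPKM in elevated light, against 16.6 FPKM in control light (-0.94 ± 0.05, limma adjusted p = 7.91e-18). Of the other PDLP genes PDLP3 was called lower in 6 of the 8 light comparisons. Of the 12 other GLR genes tested in the chains none was called higher and 7 lower in the lit leaf of WT-hpca1-WT, and 2 higher and 5 lower in that of 3WT (62.5% and 59.3% of all genes called). Median-of-ratios scaling changed these to 3 and 5 and to 4 and 3.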

How the data were processed

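The authors deposited FPKM values for every gene, with contact and chain libraries in separate tables. Per the submitters' processing notes the build was TAIR10 and the tools were Trim Galore 0.6.10, FastQC 0.12.1, HISAT2 2.2.1, SAMtools 1.18, Cufflinks 2.2.1 and Cuffdiff 2.2.1. Their roles, the annotation and whether strand was used are not given in the sources used here. Fragment totals are unknown, so no counting interval was computed. The test covered genes that reached an FPKM of 1 in 3 or more libraries (17177 for contact, 18735 for the chains). On log2(FPKM + 1), limma (version 3.58.1, R version 4.3.3) estimated a mean for each group of a table, used eBayes with trend, and was tested on simulated data. Fold changes are on this scale, which understates low genes. Tests were two-sided, within 1 table, and adjusted over all its tested genes. The members and lists were chosen with earlier results of these data known. Named genes are the 10 members, at most 3 called genes of each list per comparison (largest change, at least 1 FPKM in the higher group), and the 2 genes most like each member by Pearson r over the chain group means (mean FPKM of at least 5). Counts over all 8 light comparisons were added after values were seen. Alternatives were a pseudocount of 0.1, no filter, a filter at 5 FPKM, median-of-ratios scaling, quantile normalization, eBayes without trend, only the groups compared, a replicate block and leaving out each library. Replicates pool separate plants per the labels. Locations and sequences are from RefSeq TAIR10.1.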

Additional observations from a re-analysis of the deposited data

Results flagged for a closer look

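Each difference of the light response between the chains that passed the test (WT-hpca1-WT response minus 3WT response, log2, limma adjusted p under 0.05) is listed here. These differences share control leaves with the comparison of chains in control light, where RBOHD at systemic leaf 3 was -0.50. The mutant middle plant and other differences between the plants of the chains cannot be told apart in them. In the lit local leaf the differences were -0.23 for CIPK26 and -0.38 for RBOHD. At systemic leaf 1 they were 0.39 for GLR3.3, 0.44 for PDLP5, -0.37 for GHR1 and -0.16 for HPCA1. At systemic leaf 2, hpca1-1 in the WT-hpca1-WT chain, they were 0.60 for GHR1, -0.28 for RBOHD and 0.51 for HPCA1. At systemic leaf 3 they were 0.32 for RBOHF, 0.39 for GHR1 and 0.64 for RBOHD, and without replicate 3 of the WT-hpca1-WT control leaves they were 0.31, 0.33 and 0.52, of which that of GHR1 was no longer called. No test for a single outlying value was run within groups of 3. Distances between replicates and values without each library are given instead.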

How the results depend on the processing

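Of 190 pairs of gene and comparison 59 were called, and 32 of these were called under every alternative that tested them. Fitting each comparison on its own groups alone ended 18 of the 59 calls, median-of-ratios scaling 10, quantile normalization 9, testing all genes without a filter 2 and a pseudocount of 0.1 ended 1. Leaving out 1 library ended 20 of the 59 calls at least once. The count of members called in the lit local leaves of both chains was 12, and 6 with a filter at 5 FPKM, which leaves fewer members to test. The count between chains in control light was 10, and 6 when each fit held its own groups alone, which leaves fewer libraries to estimate the spread. The full fit shares its spread over all groups. Of the calls lost here, the SE grew at systemic leaf 3 for HPCA1 (0.076 against 0.040) and GLR3.3 (0.093 against 0.061). The SE shrank for RBOHF at that leaf (0.063 against 0.070) and for GLR3.3 in the hpca1-1 leaf (0.046 against 0.061). HPCA1 at systemic leaf 2 of the 3WT chain was -0.13 as reported and 0.0050, of the opposite sign, under median-of-ratios scaling. Replicate numbers paired no comparison (same-number correlations of -0.233 to 0.315, none of 15 comparisons with all over 0.1), and a replicate block ended 0 calls and added 1. Depth per value is not known, which limits most the members near 1 FPKM (PDLP1, GLR3.6, GHR1, and PDLP5 in the contact table).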
